A study of Mus musculus with 12 samples.

Results

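Rab proteins are small GTPases that switch between a GTP-bound form on membranes and a GDP-bound form held in the cytosol, and each marks a membrane compartment and recruits the effectors that move, tether and fuse its vesicles. Exchange factors (GEFs) load them with GTP, GTPase-activating proteins (GAPs) switch them off, and prenylation anchors them in the membrane. In T cells they are known for carrying the T cell receptor through recycling endosomes to the immunological synapse and for docking lytic granules in cytotoxic cells. The Rab genes were taken as the rows of the table of unstimulated cells whose symbol is Rab, a number and at most a letter and a further digit, which gave 40 of 11581 genes. GENCODE M21 has 18 other protein-coding Rab genes of this symbol form without a row, among them Rab4b, Rab27b and Rab30, and these were not analysed here. A further row listed under the symbol 5430435G22Rik is called Rab7b in GENCODE M21 and fell outside the rule.

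Purified CD8 T cells came from CD45.2+ C57BL/6 J mice, 2 months after their marrow was replaced by a mixture from 2 donors. In the scurfy group the OT-1 donor was Foxp3Scurfy and CD45.1+/2+, and in the wild-type group it was Foxp3wt and CD45.1+/2+. In both groups the other donor was CD45.2+. OT-1 cells carry a transgenic T cell receptor for the SIINFEKL peptide of ovalbumin, and scurfy is a mutation that inactivates Foxp3, known as the transcription factor of regulatory T cells. The labels do not say how the OT-1 cells were told apart from those of the other donor, nor whether each library is a separate mouse, so the p-values reflect library-to-library spread that may be technical. The comparison is between 3 scurfy and 3 wild-type libraries of unstimulated cells, out of 12 samples in 4 groups. The 6 stimulated samples were not analysed here, because the table given for them is identical to that of the unstimulated libraries, column names included. Summed over the table, the libraries held 8852518 to 23149523 reads, wild-type library 2 being the deepest. Foxp3 had no row, so the genotype labels could not be checked against it.

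All 8 markers listed for CD8 T cells had rows, with summed levels of 119100 to 123900 normalized counts in wild type and 128700 to 135200 in scurfy. Only Cd8a and Cd8b1 among these markers are particular to CD8 cells, the rest being T cell receptor and CD3 genes of T cells in general. Among them Cd3d, a subunit of the T cell receptor complex, rose (log2 change 0.76, limma adjusted p = 0.0055), and the other 7 did not pass. None of 3 CD4 T cell markers had a row, which leaves their levels unknown. Of 15 B cell markers 8 had rows, all with negative log2 fold changes, summing to 9915 to 11810 normalized counts in scurfy cells and 11030 to 11930 in wild type. H2-Aa, an MHC class II gene, was the B cell marker that fell, and it was listed at 0 in scurfy library 2, as was the class II gene H2-Ab1 in scurfy libraries 2 and 3. Other listed markers also moved with genotype. Of 10 myeloid markers 2 had rows: Cst3 rose, and Cd68, at most 61.8 normalized counts in any library, did not pass. Their summed level was 1463 to 1579 in scurfy cells against 850.2 to 1172 in wild type. Nkg7 rose, the only row among 4 natural killer markers, and Car2 fell, the only row among 5 erythroid markers. Whether these transcripts came from CD8 T cells or from other cells was not tested. In bulk RNA fewer cells of a type and less RNA per cell cannot be told apart, and the part of these shifts in the Rab results was not tested.

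Of the 40 Rab genes, 3 fell in scurfy cells and none rose. They were Rab6a and Rab6b, paralogs that direct transport at the Golgi, and Rab11a, which marks recycling endosomes. Of all genes tested, 2.35% fell and 2.12% rose in limma at an adjusted p under 0.05, where 3 of 40 Rab genes are 7.5%. The gap from the background of falls rests on these 3 genes, with the Rab6 paralogs among them, and was not tested. The changes were moderate, between 1.48-fold and 1.76-fold. By unadjusted p 10 of the 40 were under 0.05, beside 21.2% of all genes. All 3 calls ended in limma without trend and robust moderation, at adjusted p of 0.139, 0.142 and 0.180, a setting that called 0.0% of all genes while 18.2% had an unadjusted p under 0.05. The authors' deposited table called the same 3 genes and also Rab10, against a background there of 4.76% lower and 4.15% higher.

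Rab6a, whose product carries vesicles from the Golgi and back to it from endosomes, stood at 380.2, 319 and 269.5 normalized counts in scurfy libraries 1 to 3 and at 618, 559.7 and 517 in wild-type libraries 1 to 3. Every scurfy library lay below every wild-type library. The mean was 323 ± 55.5 in scurfy cells and 565 ± 50.8 in wild type (SD over 3 libraries each), and the log2 fold change was -0.82 (SE 0.16, limma adjusted p = 0.0144). The gene (ENSMUSG00000030704, chromosome 7 in GENCODE M21) shares 708 bases of exon with Mrpl48 on the opposite strand, and the labels do not say whether reads were counted by strand. Mrpl48, a subunit of the mitochondrial ribosome, was at 576 ± 75.0 in scurfy cells and 370.2 ± 94.5 in wild type, the other way (log2 change 0.66, adjusted p = 0.0609).

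Rab6b, the paralog best known from neurons, had 618, 622 and 574.5 normalized counts in the scurfy libraries and 1077, 930.4 and 845 in the wild-type libraries. The groups again did not overlap. The mean fell from 951 ± 117 to 605 ± 26.4, a log2 fold change of -0.65 (SE 0.13, limma adjusted p = 0.0149). Without wild-type library 1 the adjusted p was 0.0515. Per kilobase of exon Rab6b was at 155 ± 40.6 normalized counts and Rab6a at 119 ± 37.8. These SDs are over all 6 libraries of both genotypes, so they include the fall in scurfy cells. On this scale Rab6b lay above Rab6a in every library. The paralogs are alike in coding sequence, and the labels do not say how reads in shared stretches were assigned.

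Rab11a, which returns receptors from recycling endosomes to the cell surface, had 641, 713 and 615 normalized counts in the scurfy libraries and 836, 980.2 and 1119 in the wild-type libraries. Its groups did not overlap, with wild-type library 1 and scurfy library 2 the closest. The mean was 656 ± 50.8 in scurfy cells and 978 ± 141 in wild type, a log2 fold change of -0.57 (SE 0.13, limma adjusted p = 0.0282). This call was the least secure: it ended when any library but wild-type library 1 was dropped, at adjusted p from 0.0555 to 0.113, and held without that library, at 0.0280.

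**Figure D1:**
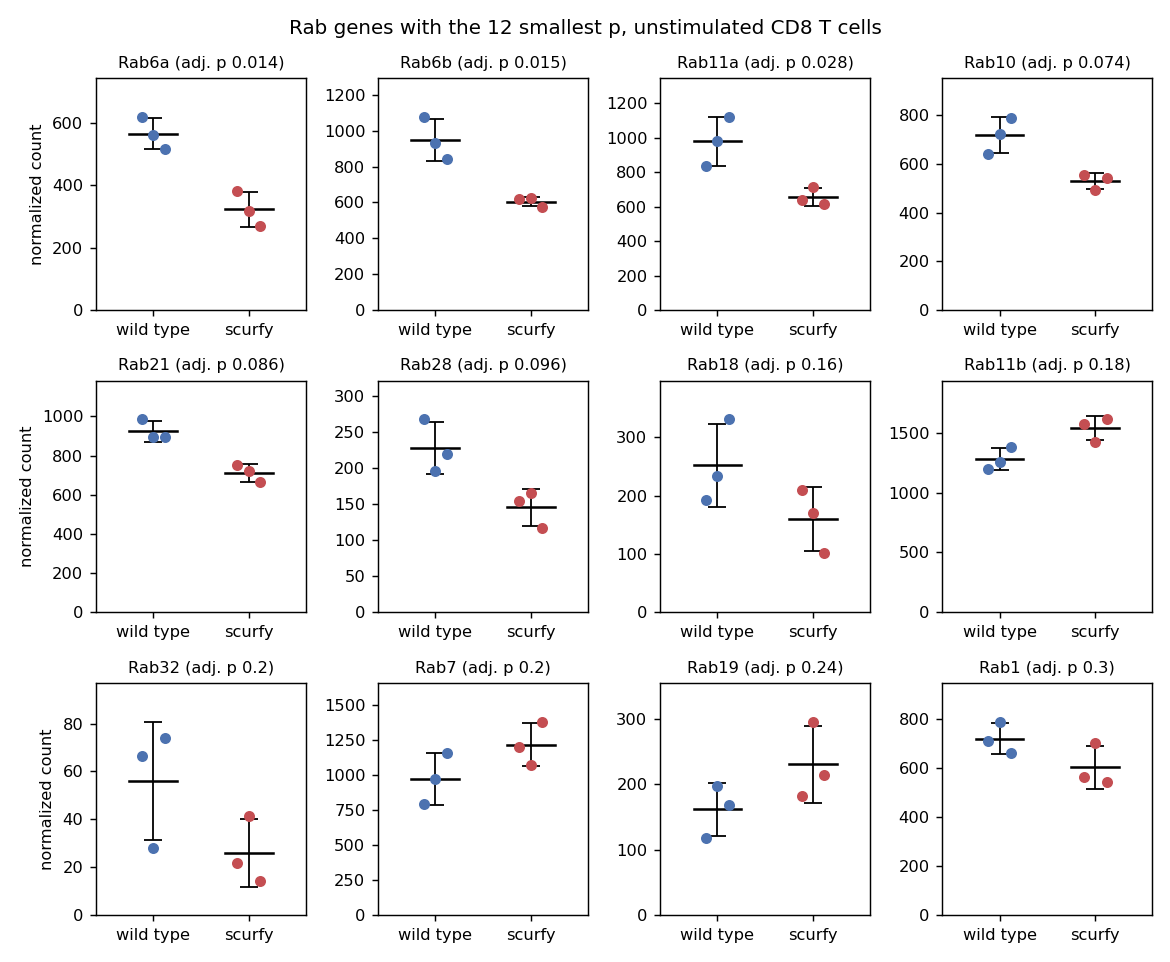
Normalized counts (linear axis from 0) of the 12 Rab genes with the smallest p, with wild-type libraries in blue and scurfy libraries in red, 1 point per library. The horizontal line is the mean and the bar 1 SD (n = 3), and the limma adjusted p is given above each panel; in the panels of Rab6a, Rab6b, Rab11a, Rab10, Rab21 and Rab28 every red point lies below every blue one.

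The sequences before the starts of the 3 genes that fell, and of Rab11b, the paralog that did not pass, are shown because the 3 share a direction of change and Rab11b is a close relative of Rab11a. Each is the 250 bases before the RefSeq start in GRCm38.p6, read 5′ to 3′ on the strand of the gene. They lie at chr7:100607336-100607585 (plus strand, Rab6a), chr9:103111824-103112073 (plus strand, Rab6b), chr9:64737757-64738006 (minus strand, Rab11a) and chr17:33760487-33760736 (minus strand, Rab11b). Capitals mark any match on either strand to 4 motifs: the forkhead core TGTTTAC, the E-box CACGTG, the Ets core CCGGAAG and the GC box GGGCGG.
Rab6a: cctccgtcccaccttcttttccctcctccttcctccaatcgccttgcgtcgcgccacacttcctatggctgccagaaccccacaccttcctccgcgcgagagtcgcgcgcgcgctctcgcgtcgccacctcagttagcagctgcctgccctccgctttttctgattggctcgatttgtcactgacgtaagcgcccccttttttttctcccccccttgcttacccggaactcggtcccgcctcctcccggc
Rab6b: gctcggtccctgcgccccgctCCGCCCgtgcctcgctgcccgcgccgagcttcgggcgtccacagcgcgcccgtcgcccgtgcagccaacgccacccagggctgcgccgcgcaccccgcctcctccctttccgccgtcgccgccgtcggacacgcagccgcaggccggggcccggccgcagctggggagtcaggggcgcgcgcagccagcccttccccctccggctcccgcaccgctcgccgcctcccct
Rab11a: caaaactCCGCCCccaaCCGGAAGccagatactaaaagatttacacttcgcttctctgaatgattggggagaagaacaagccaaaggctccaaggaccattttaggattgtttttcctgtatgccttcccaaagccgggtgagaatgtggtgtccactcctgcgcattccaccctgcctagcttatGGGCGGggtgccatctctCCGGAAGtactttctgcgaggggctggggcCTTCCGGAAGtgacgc
Rab11b: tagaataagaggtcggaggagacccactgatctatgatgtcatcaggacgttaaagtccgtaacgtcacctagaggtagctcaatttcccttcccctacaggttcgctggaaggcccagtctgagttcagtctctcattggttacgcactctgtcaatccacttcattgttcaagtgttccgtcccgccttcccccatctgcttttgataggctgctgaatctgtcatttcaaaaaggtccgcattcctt
Rab11a held 4 matches to the Ets core, of which a pair overlaps on opposite strands, and 2 GC boxes, Rab6b held 1 GC box, and the windows of Rab6a and Rab11b held none of the 4 motifs. The forkhead core and the E-box were in none of the 4 windows. Over the 10076 RefSeq promoter windows of genes in the table, 15.2% held the Ets core, 58.8% the GC box, 8.65% the E-box and 2.12% the forkhead core. Of 42 windows matched to 35 of the Rab genes, 3 held the Ets core, 28 the GC box, 5 the E-box and 1 the forkhead core. GC content also differed among the 4 windows, from 48.4% for Rab11b and 53.6% for Rab11a to 62.8% for Rab6a and 80.8% for Rab6b, beside a median of 60.0% for genes in the table.

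Close relatives were also summed. The summed level of Rab6a and Rab6b was 998, 941 and 844 normalized counts in scurfy cells and 1695, 1490.1 and 1362 in wild type, and the share of Rab6a in it lay between 31.9% and 38.1% in all 6 libraries. Rab11b, a recycling endosome Rab close to Rab11a in sequence, had 1574, 1424 and 1609 normalized counts in scurfy cells and 1199, 1257 and 1381 in wild type. Its groups did not overlap, with the scurfy libraries higher, but it did not pass (log2 change 0.26, SE 0.11, limma adjusted p = 0.181), and 329 of its exonic bases overlap Gm17251, a long noncoding RNA gene on the opposite strand. Together Rab11a, Rab11b and Rab25, an epithelial relative, summed to 2219 ± 53.0 normalized counts in scurfy cells and 2283 ± 232 in wild type. The share of Rab11a in that sum was 28.4%, 33.0% and 27.4% in scurfy cells and 40.6%, 43.3% and 44.3% in wild type. The total of the Rab11 group thus lay within the spread of the libraries. The separation of the shares follows from Rab11a being lower and Rab11b higher without overlap, so it is not a further result. No test was made of the shares.

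**Figure D2:**
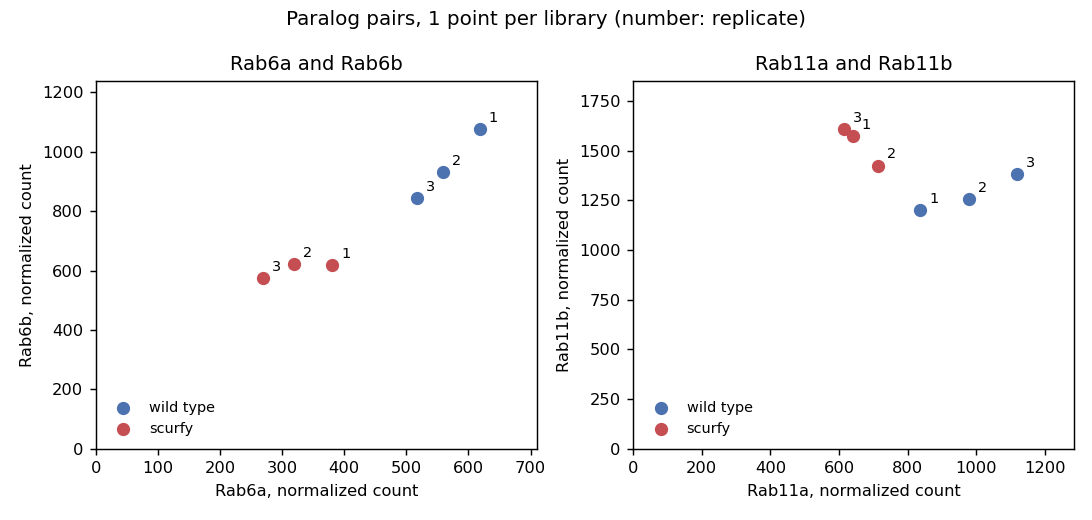
Normalized counts of the Rab6 pair (left) and the Rab11 pair (right) on linear axes from 0, 1 point per library, wild type in blue and scurfy in red, with the replicate number beside each point. The Rab6 points run from low in both paralogs in scurfy to high in both in wild type, while the scurfy points of the Rab11 pair lie to the left of and above the wild-type points.

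Among the Rabs of the endoplasmic reticulum and Golgi, 11 had rows, 2 fell, 9 did not pass, and the median log2 fold change was -0.12. Rab18, which acts at the endoplasmic reticulum and lipid droplets, had 209, 171 and 102 normalized counts in scurfy cells and 193, 233 and 331 in wild type. These values overlapped, and the log2 fold change was -0.67 (SE 0.27, limma adjusted p = 0.163). Rab1, which drives the first step from the endoplasmic reticulum to the Golgi, was at 604 ± 88.3 in scurfy cells and 722 ± 64.2 in wild type (log2 change -0.26, adjusted p = 0.298). Its paralog Rab1b was at -0.11, and their summed level was 1717.5 ± 201 in scurfy cells and 1926 ± 152 in wild type. Rab2a, of the early secretory pathway, had the highest level per kilobase of exon of the 40, at 933 ± 64.6 normalized counts over 6 libraries. Without division by length Rab8a was higher, with a mean of 2519 against 1989 for Rab2a. Levels per kilobase, here and elsewhere, assume reads spread evenly over the annotated exons, which was not tested in these poly-dT-primed libraries. The log2 fold change of Rab2a was -0.04, with a 95% interval from -0.27 to 0.19. Rab19 lay the other way, with 182, 295 and 214 normalized counts in scurfy cells and 118, 198 and 169 in wild type, which overlapped (log2 change 0.51, adjusted p = 0.237). Rab33a was too low to place: it had a mean of 13.9 normalized counts and was listed at 0 in wild-type library 1, where 3 reads are worth 3.99 normalized counts. Rab2b was at 0.20, Rab33b at -0.12 and Rab43 at -0.25, and Rab43 shares 4164 of 5526 exonic bases with Gm45140 on the same strand. Of the 4163 exonic bases of Rab2b, 2469 are shared with Gm43766 and 195 with Tox4, both on the opposite strand, so its value is uncertain.

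Of the 9 Rabs of recycling and exocytic transport, Rab11a fell and 8 did not pass, with a median log2 fold change of -0.0015. Rab10, which delivers vesicles to the plasma membrane, came closest. It had 555, 492 and 540.2 normalized counts in scurfy cells and 641, 723 and 789.8 in wild type, so the groups did not overlap. The log2 fold change was -0.44 (SE 0.13, limma adjusted p = 0.0743), and DESeq2 on recovered reads and scaling by library size placed it past the threshold, at 0.0379 and 0.0272. The DESeq2 value equals that of the authors' deposited table, so these are not separate results. Rab10 shares 143 bases of exon with its antisense neighbour Rab10os, with a log2 fold change of -0.09 (adjusted p = 0.763). Rab8a, an exocytic Rab, was at 2637 ± 124 in scurfy cells and 2401 ± 144 in wild type, and Rab8b, its paralog, at 619 ± 56.3 and 598 ± 60.2. Rab35 and Rab14, which act in endocytic recycling, were at -0.05 (95% interval -0.30 to 0.19) and -0.13 (-0.43 to 0.17). Rab4a, a Rab of rapid recycling, was low, at 23.7 ± 4.84 in scurfy cells and 12.8 ± 2.39 in wild type, and its groups did not overlap although it did not pass (log2 change 0.84, SE 0.51).

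None of the 7 early endosome Rabs passed, and their median log2 fold change was -0.24, with 1 of the 7 under an unadjusted p of 0.05. That gene was Rab21, known for integrin traffic, with 752, 720.0 and 663 normalized counts in scurfy cells and 984, 893 and 892 in wild type. Its groups did not overlap, and the log2 fold change was -0.37 (SE 0.12, limma adjusted p = 0.0859). The Rab5 genes, which organise fusion of early endosomes, had log2 fold changes of 0.07 for Rab5c, 0.32 for Rab5b and -0.44 for Rab5a, none of them past the threshold. Per kilobase of exon Rab5c was at 653 ± 51.3 normalized counts, Rab5b at 29.4 ± 4.63 and Rab5a at 14.9 ± 4.92 over the 6 libraries. Their summed level was 1675 ± 144 normalized counts in scurfy cells and 1596 ± 109 in wild type. Rab22a, which acts beside Rab5 in sorting, was at -0.04 and Rab31, its relative, had a mean of 17.5 normalized counts. Rab20 was at -0.24 (95% interval -0.66 to 0.18).

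Neither did any of 6 Rabs of late endosomes, lysosomes and autophagy pass, and 2 of them were under an unadjusted p of 0.05. Rab7, which controls transport from late endosomes to lysosomes, had 1202, 1074 and 1382 normalized counts in scurfy cells and 791, 971 and 1161 in wild type. Its groups overlapped, and the log2 fold change was 0.33 (SE 0.15, limma adjusted p = 0.203). Rab32, a Rab of lysosome-related organelles, had 21.8, 41.5 and 14.2 in scurfy cells and 66.5, 28.0 and 73.9 in wild type. It had the most negative log2 fold change of the 40, -1.11, but the values overlapped and the SE was 0.48 (adjusted p = 0.199). Rab9, which returns receptors from late endosomes to the Golgi, was at -0.10 (95% interval -0.43 to 0.24), Rab29 at -0.11, Rab12 at -0.07 and Rab24 at 0.01. Most of the exonic length that Rab24 has is shared with Prelid1 on the opposite strand, 1258 of 2015 bases, so its value is uncertain. The row named Rab7b in GENCODE M21 was at 36.3, 18.3 and 3.55 normalized counts in scurfy cells and 38.5, 28.5 and 26.9 in wild type (log2 change -1.10, adjusted p = 0.352).

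The 4 Rabs of regulated secretion with rows did not pass, and none had an unadjusted p under 0.05. Rab27a, which docks lytic granules at the plasma membrane of cytotoxic T cells, was at 447, 538 and 389 normalized counts in scurfy cells and 512, 491 and 504 in wild type. The groups overlapped, and the 95% interval of its log2 fold change ran from -0.46 to 0.17. Rab37 was at 0.09 (95% interval -0.21 to 0.40). Rab3d and Rab3a, from the family that controls secretory vesicles, were at 0.33 and 0.09, Rab3d at 139 ± 12.2 in scurfy cells and 110 ± 2.22 in wild type without overlap. Of the remaining 3 genes, Rab28, associated with cilia and photoreceptors, had 154, 166 and 117 normalized counts in scurfy cells and 267, 196 and 219.9 in wild type. Its groups did not overlap and the log2 fold change was -0.65 (SE 0.21, limma adjusted p = 0.0962). Rab40c, part of a ubiquitin ligase, was at -0.12, and Rab23, a regulator of Hedgehog signalling, at 0.44 (SE 0.36).

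**Figure D3:**
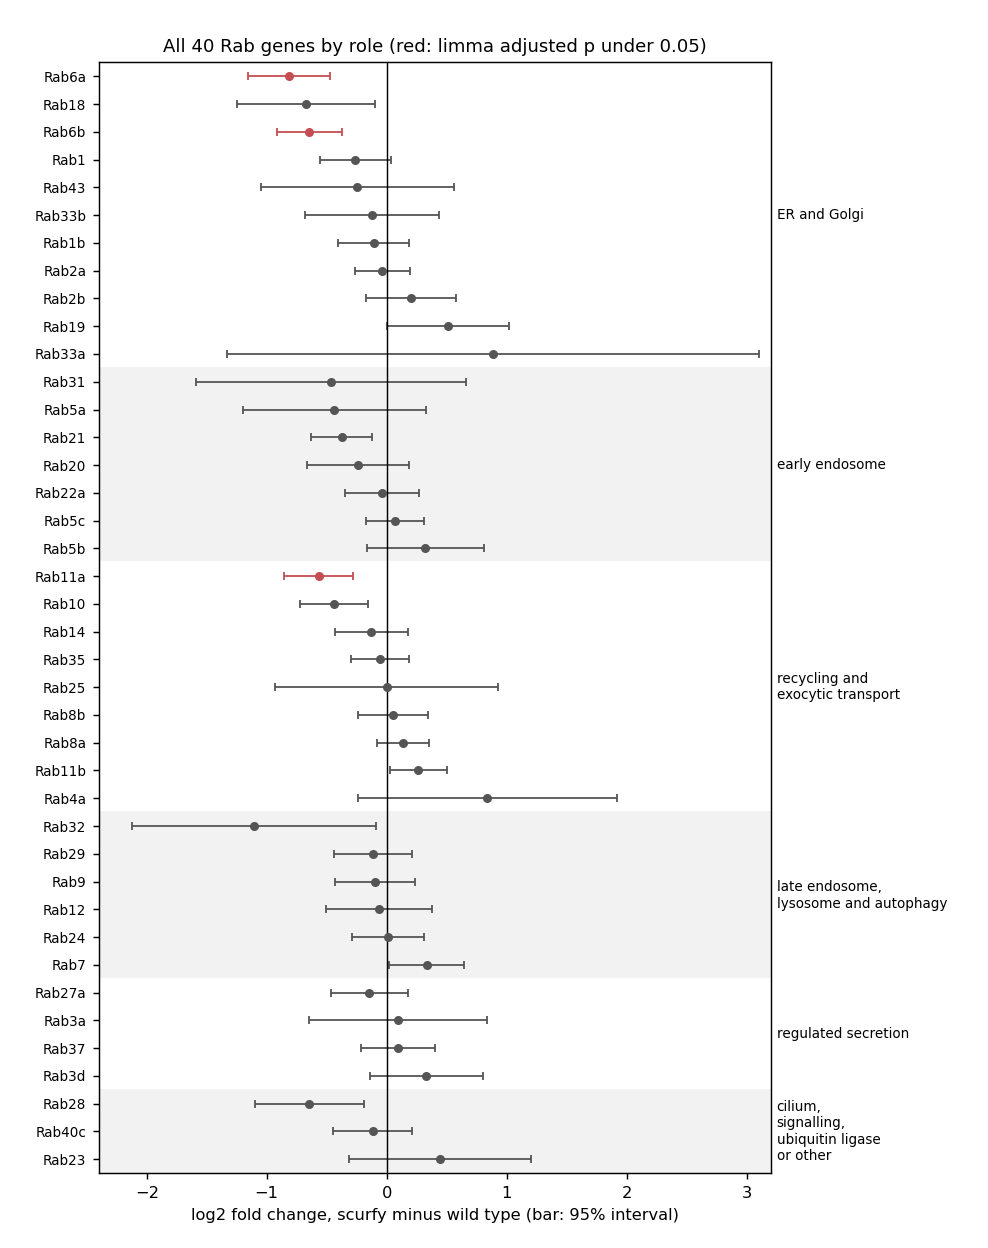
Log2 fold change, scurfy minus wild type on the log2(normalized count + 1) scale, of all 40 Rab genes grouped by role, with the 95% interval from the limma fit as a bar. The 3 red points, Rab6a, Rab6b and Rab11a, passed an adjusted p of 0.05, while 37 grey points did not; Rab33a has the widest interval, from -1.33 to 3.11.

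Across the family the median log2 fold change was -0.08, beside 0.01 over all genes, and 25 of 40 were negative, 62.5% against 48.9% of all genes. Without scurfy library 3 the median was -0.01, and without wild-type library 2 it was -0.03. The groups did not overlap for 9 Rab genes, 22.5% against a background of 27.1%, with 6 lower and 3 higher in scurfy where 13.7% and 13.4% of all genes were. The sum of all 40 was 21779, 21686 and 21629 normalized counts in scurfy cells and 22181, 22677 and 23536 in wild type, and each scurfy library lay below each wild-type library. This sum includes the 3 genes called lower and is not separate from those calls. In it the mean of the Rab6 pair was 928 in scurfy cells and 1516 in wild type, and that of Rab11a 656 and 978. For 29 of the 40 the 95% interval lay within 2-fold in either direction and for 18 within 1.5-fold. The 6 genes with a mean under 50 normalized counts, Rab32, Rab3a, Rab25, Rab4a, Rab31 and Rab33a, had SEs of 0.35 to 1.04.

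Log2 fold changes differed with gene length in the table as a whole: 1098 genes with under 1000 exonic bases had a median of 0.33 in log2 fold change and 5883 genes with 4000 or more had -0.05. The Rab genes had from 1158 to 13589 exonic bases, with a median of 3633 against 4075 over all genes, and none was under 1000. Within the class from 2000 to under 4000 bases, 17 Rab genes had a median of -0.12 beside 0.02 for the 3291 genes in that class, and the 16 with 4000 or more had 0.0044. With a smooth length trend taken out of each library the 3 calls were kept, Rab6a at -0.80 (adjusted p = 0.0209), Rab6b at -0.61 (0.0276) and Rab11a at -0.58 (0.0317), and 1.47% of all genes were called lower. On library size alone the median over all genes shifted by -0.14, and 6 Rab genes were called lower, the 3 with Rab10, Rab21 and Rab28, against a background of 6.57% lower and 1.45% higher.

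**Figure D4:**
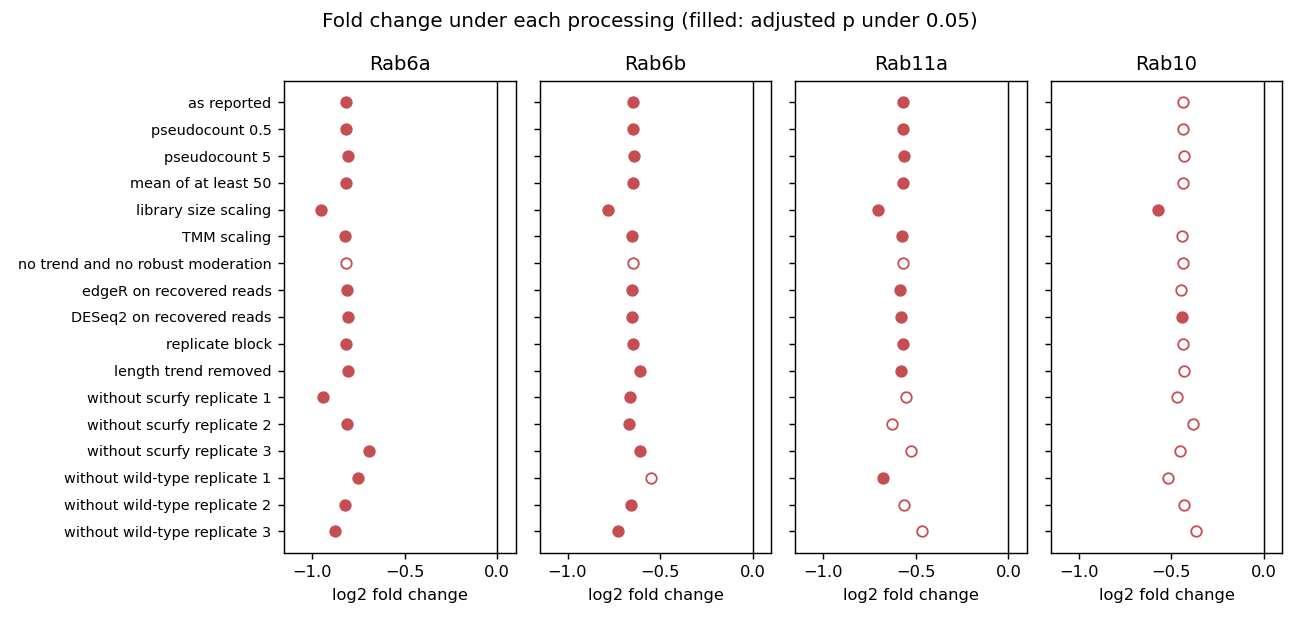
Log2 fold change of Rab6a, Rab6b, Rab11a and Rab10 (horizontal axes) under the reported processing and 16 alternatives (rows), filled where the adjusted p was under 0.05 and open where it was not. All points lie left of 0; those of Rab6a are filled except without trend and robust moderation, and those of Rab11a are open in 5 of 6 rows that leave out a library.

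Of 43 Rab GEFs with rows, 1 rose, 1 fell and 41 did not pass, a share near the 4.47% of all genes called in either direction, and their median log2 fold change was 0.00. Sbf1, a GEF of the DENN family, had 2773, 2789 and 2507 normalized counts in scurfy cells and 2007, 1848 and 1818 in wild type. The groups did not overlap, and it rose by 0.51 on the log2 scale (SE 0.10, limma adjusted p = 0.0163), though its call ended without scurfy library 2, wild-type library 2 or wild-type library 3, at up to 0.0648. Dennd4a, a GEF for Rab10, had 207, 187 and 159.6 in scurfy cells and 335, 269 and 298 in wild type. It fell by 0.70 (SE 0.18, adjusted p = 0.0434), but its call ended on leaving out any library, at up to 0.120, with the length trend removed (0.119) and with the replicate number as a block (0.0658). The other GEFs of that subfamily did not pass, Dennd4b at -0.37 and Dennd4c at 0.01.

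None of 31 Rab GAPs, 37 effectors, 8 genes of prenylation and membrane cycling or 5 Rab-like GTPases passed in limma. At an unadjusted p under 0.05 there were 5, 4, 2 and 2 genes, where 21.2% of all genes were, and DESeq2 called 0, 1, 1 and 0, beside 8.9% of all genes. Evi5, a GAP for Rab11, had the smallest p of the GAPs, at 9.69, 0 and 5.91 normalized counts in scurfy cells and 34.6, 19.3 and 20.98 in wild type (limma adjusted p = 0.102). In the scurfy libraries 3 reads are worth 3.55 to 3.66, so its scurfy values rest on few reads. Appl2, an adaptor on early endosomes, led the effectors at -0.65 (SE 0.19, adjusted p = 0.0676), with values that overlapped between groups. Without wild-type library 1 its adjusted p was 0.0359. Rabac1, a prenylated Rab acceptor of the Golgi, led the prenylation genes, with 8235, 6909 and 6733 normalized counts in scurfy cells and 5681, 3837 and 6102 in wild type without overlap (log2 change 0.51, SE 0.15, adjusted p = 0.0714). Among the Rab-like genes Ift27, a component of ciliary transport, was at 0.44 (SE 0.17, adjusted p = 0.154) and the median of the 5 was 0.26.

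The known partners of the genes described above were set beside them by role, after the Rab values had been seen. For Rab6 none of 4 partners with rows passed: the GEF subunits Ric1 and Rgp1 were at -0.36 and -0.20, the motor adaptor Bicd2 at -0.28 and the golgin Gcc2 at -0.16. For Rab11 none of 8 passed, the GEF complex subunits Trappc9 and Trappc10 standing at 0.39 and -0.10, the effectors Rab11fip1 to Rab11fip4 between -0.17 and 0.21, and Wdr44 at -0.72 (SE 0.29, limma adjusted p = 0.169). For Rab10 the GAPs Tbc1d1 and Tbc1d4 were at 0.26 and -0.20. For Rab7 none of 8 passed, with log2 fold changes from -0.22 for the GEF subunit Ccz1 to 0.29 for the tethering subunit Vps39. For Rab27 none of 5 passed. The granule priming factor Unc13d was at 789 ± 26.5 normalized counts in scurfy cells and 713 ± 98.6 in wild type, and Sytl3, a synaptotagmin-like effector, at 130 ± 21.4 and 80.0 ± 16.4 without overlap (log2 change 0.70, adjusted p = 0.137).

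Beside the Rabs, 23 GTPases of the Arf, Arl and Sar1 families, which recruit coats to the same membranes, had 2 genes that fell and none that rose, beside 2.35% and 2.12% of all genes, with a median of -0.19. These were Arf4, a Golgi Arf, at 617 ± 177 normalized counts in scurfy cells and 1101 ± 164 in wild type (log2 change -0.87, SE 0.19, limma adjusted p = 0.0202), and Arf6, which acts at the plasma membrane and endosomes, at 434 ± 119 and 728 ± 70.0 (-0.78, SE 0.18, adjusted p = 0.0266). The Arf4 call ended without wild-type library 2 or 3 and the Arf6 call on leaving out any library but scurfy library 1, with adjusted p up to 0.0861 and 0.0964. Of 36 SNAREs, which fuse the vesicles, Stx7 and Stx16 fell, at -0.84 (adjusted p = 0.0268) and -0.46 (0.0411), and 34 did not pass, beside the same 2.35% of all genes that fell. The call ended on leaving out any library for Stx7 and any but scurfy library 1 for Stx16, at up to 0.0842 and 0.136, and both ended with the replicate number as a block, at 0.0512 and 0.0705. No test of a difference between these lists and the Rab genes was made.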

How the data were processed

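Poly-dT-primed RNA was amplified by in vitro transcription and sequenced on a NextSeq 500, per the labels' protocols. Trim Galore 0.4.4, STAR 2.6, featureCounts, edgeR, DESeq2 and the build NCBIM37 are named in the submitters' processing notes, without their settings. The deposited values, called normalized counts here, are a signal: the values show that the authors had scaled each library's read counts by its own factor, since all values were whole multiples of 1 read within 0.01 read. In wild-type library 2 the lowest value was 2 reads, so its step was taken from gaps between low values. The log2 fold changes, test statistics (a score) and p-values of the authors' deposited table are used only where it is named.

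The normalized values were tested as log2(value + 1) with limma 3.58.1 (R 4.3.3), with trend and robust moderation (4 residual and 10.7 prior degrees of freedom), over 6 libraries and 11581 genes. Log2 fold changes are differences of group means on that scale, and for low genes they can lie above or below the ratio of mean counts. P-values were adjusted by Benjamini-Hochberg over all genes, with a threshold of 0.05. Alternatives were pseudocounts of 0.5 and 5, a minimum mean of 50, library size and TMM scaling, plain limma moderation, edgeR 4.0.16 and DESeq2 1.42.0 on recovered reads, a replicate block, removal of a length trend (loess span 0.3) and leaving out each library. The scripts were tested on simulated data. Lengths and overlaps came from GENCODE M21, which matched 11571 genes by identifier, and promoters from RefSeq GRCm38.p6 by symbol. No sequence was read with NCBIM37 coordinates. Genes in full were those past the threshold, then those of smallest p up to 12, with their paralogs; from other lists, those past the threshold or that of smallest p. The Rab genes and all lists were chosen with earlier results of these data known.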

Additional observations from a re-analysis of the deposited data

How the results depend on the processing

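The Rab, GEF, Arf group and SNARE genes past the threshold, and the 12 Rab genes given in full, kept their direction under the alternatives run for them. Cell type markers past the threshold were not followed under the alternatives. Of the other Rab genes, none past the threshold, Rab8a, Rab37, Rab5c, Rab8b, Rab3a and Rab24 turned negative with library size scaling (-0.00067 to -0.13). With the length trend removed Rab14 and Rab22a turned positive (0.0023 and 0.035) and Rab24 negative (-0.04). Rab25, at -0.0015 in limma, was at 0.05 in the authors' deposited table. The signs of these other genes under the remaining alternatives are not given here. The 3 Rab genes called lower became 6 with library size scaling, 0 without trend and robust moderation, and 2 whichever library was left out; no alternative called a Rab gene higher. Over all genes, 272 lower and 246 higher became 761 and 168 with library size scaling, 0 and 0 without trend and robust moderation, 476 and 415 with DESeq2, 170 and 132 with the length trend removed, and 37 to 223 and 76 to 180 with a library left out, lowest in both directions without wild-type library 3. The Rab median of -0.08 became -0.22 with library size scaling and lay between -0.11 and -0.011 with a library left out. With library size scaling 1 GAP, 1 effector, 5 Arf group genes and 4 SNAREs were called; with DESeq2, 1 prenylation gene, 5 GEFs, 1 effector and 4 Arf group genes. Without trend and robust moderation 0 GEFs, 0 Arf group genes and 0 SNAREs were called, and with the length trend removed 1 GEF and 1 SNARE. With a library left out, 0 to 2 GEFs, 0 to 1 effectors, 0 to 2 Arf group genes and 0 to 1 SNAREs were called. The cause was not tested.

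No pairing by replicate number was seen: deviations of libraries with the same number from their group means correlated at 0.009, -0.04 and -0.069 across genes. With 3 libraries in each group, such values cannot show whether libraries of the same number shared a batch. With the replicate number as a block, 3 Rab genes were called lower, all genes gave 196 lower and 176 higher, and 1 GEF and 0 SNAREs were called. Depth limits the low Rab genes, among them the 6 with means under 50 normalized counts. Not every library correlated best with its own number, the highest value, 0.116, being between scurfy library 3 and wild-type library 2.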
